A study of Homo sapiens with 3 samples.

Results

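The guanylate-binding proteins GBP1, GBP2, GBP3, GBP4 and GBP5 were examined in HT29 cells, an established human colon cancer line, after lentiviral transduction with a miR-146a expression construct or with an empty vector. The series holds 2 arrays of miR-146a cells and 1 array of vector cells, grown in the same serum-containing medium, and asks how the microRNA alters gene expression. Nothing in the labels tells whether separate cultures gave the 2 miR-146a arrays, so their spread may be technical, and the vector was measured once. All probe sets annotated to exactly 1 of these 5 genes were taken, which gave 11 probe sets and 5 genes, out of 19775 genes that had their own probe set. The 5 genes were chosen with the values of this contrast already known, so their differences are a description and carry no test.

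Guanylate-binding proteins are large GTPases of the dynamin superfamily and are among the genes most readily induced by interferons, interferon gamma above all. They assemble on intracellular bacteria and on the vacuoles of parasites, where they expose the invader and help to start caspase signalling. In the intestinal epithelium GBP1 is known as an interferon-induced protein that has been linked to the epithelial barrier. GBP1, GBP2 and GBP5 end in a CaaX box and are anchored to membranes by a prenyl group, whereas GBP3 and GBP4 lack such a box.

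The microRNA that the construct expresses is printed first, from RefSeq, with its seed (bases 2 to 8) in capitals, because it is the only difference between the groups that the labels name. Its gene lies on chromosome 5, and the microRNA's own level is not analysed here.
hsa-miR-146a-5p: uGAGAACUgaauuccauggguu

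All 5 genes lie in 1 cluster on chromosome 1, with GBP7 between GBP2 and GBP4 (GRCh38.p14, RefSeq), GBP3 at chr1:89006680-89022866, GBP1 at chr1:89052319-89065208, GBP2 at chr1:89106132-89126114, GBP4 at chr1:89181144-89198942 and GBP5 at chr1:89256189-89272860, a span of 266 kb. RefSeq promoters were at hand for 3 of the 5, GBP1, GBP3 and GBP4. Each of the 3 holds the core of the interferon-stimulated response element, searched on both strands as GAAA, any 2 bases and GAAA again (read as TTTC, 2 bases and TTTC on the other strand), and it stands here in capitals within 30 bases, in the direction of the gene. All 3 genes are on the minus strand.
GBP1, chr1:89065316-89065345: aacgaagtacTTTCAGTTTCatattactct
GBP3, chr1:89022845-89022874: aaagaagtacTTTCAGTTTCattaggctct
GBP4, chr1:89198927-89198956: gtgcatgtccTTTCAATTTCggttctcaca

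The core begins at position -127 from the annotated start in GBP1, at position -4 in GBP4 and at position 3 in GBP3, where position 1 is the first transcribed base. It was present in 1255 of 35116 promoters of the same 300 bases (3.57%). The core of the gamma-activated site was searched only in the strict form TTCNNNGAA, which reads the same on both strands. That form was present in 1 of the 3, GBP3, from position -15, and in 2689 of all promoters (7.66%). Looser forms of the site were not searched, so GBP1 and GBP4 may hold a site that is not counted here. The 2 searched forms overlapped in 22 promoters in all, none of them among these 3 genes. A match of letters is no evidence of binding, and a window without a match says nothing of the factor. The 250 bases upstream of GBP1, the gene that differed most, are given whole, again with the core in capitals.
GBP1, chr1:89065209-89065458: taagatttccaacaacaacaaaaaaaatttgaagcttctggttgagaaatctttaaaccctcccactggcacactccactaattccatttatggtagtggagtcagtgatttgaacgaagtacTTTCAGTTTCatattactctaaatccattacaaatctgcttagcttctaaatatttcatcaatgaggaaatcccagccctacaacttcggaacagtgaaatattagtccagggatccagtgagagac

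GBP1, the best-studied human member and a protein that coats cytosolic bacteria, read about 2-fold higher in miR-146a cells by its 2 bright probe sets. GBP2 read lower, GBP3 slightly higher, and GBP4 and GBP5 were dim in all 3 arrays. Values are RMA log2 signals as deposited, and the median of all probe sets, 5.13, served as the line between bright and dim. Of the 11 probe sets 4 had an average signal above it, 2 of GBP1, 1 of GBP2 and 1 of GBP3, and all 4 were above it in each of the 3 arrays. In bulk RNA, more transcript per cell and more cells with the transcript cannot be told apart.

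The brightest probe set of GBP1, 231577_s_at, had log2 values of 6.38 and 6.38 in the miR-146a arrays, against 5.35 in the vector array. The mean difference was 1.03 on the log2 scale, or 2.04-fold. The deposited values of both miR-146a arrays were identical here, and the same value was held by 45 probe sets in replicate 1 and 53 in replicate 2, so the SD of 0 is a tie in the table and no measure of spread. The other bright probe set, 202269_x_at, which was not tied, had log2 values of 6.21 and 6.18 in the miR-146a arrays, against 5.16 in the vector array. Its mean of 6.19 ± 0.02 (SD, n = 2) lay 1.04 above the vector, or 2.05-fold. Both miR-146a arrays were thus above the vector array in both bright probe sets. The distance was many times the gap between the replicates of the untied one, but that gap holds no spread of the single vector array. The suffixes x and s mark probe sets whose probes can match more than 1 transcript, and GBP1 has close paralogs in this family, so its 2 bright readings are uncertain to the extent that paralogs share probes.

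The 2 dim probe sets of GBP1, which carry neither the x nor the s suffix, read lower signals and smaller differences. Probe set 202270_at had log2 values of 4.77 and 4.77 in the miR-146a arrays, again a tie, against 4.11 in the vector array, a difference of 0.67. Probe set 231578_at had 3.18 and 2.69 in the miR-146a arrays, against 2.69 in the vector array, so that replicate 2 equalled the vector and the arrays overlapped. Over the 4 probe sets the mean difference ran between 0.24 and 1.04, and the larger differences were in the 2 brighter probe sets. None of the 4 read lower than the vector in either miR-146a array. The pseudogene GBP1P1, read by a dim probe set of its own, had log2 values of 4.46 and 4.37 in the miR-146a arrays, against 4.38 in the vector array.

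GBP2, a prenylated member that is recruited to GBP1 coats, went the other way in both of its probe sets. The bright one, 202748_at, had log2 values of 7.01 and 7.19 in the miR-146a arrays, against 7.38 in the vector array. Its mean of 7.10 ± 0.13 (SD, n = 2) lay -0.28 from the vector, with array differences of -0.38 and -0.19. The dim one, 242907_at, had 4.46 and 4.50 in the miR-146a arrays, against 4.93 in the vector array, a difference of -0.45 with an SD of 0.03 (n = 2). Neither miR-146a array reached the vector value in either probe set, but the gap between the replicates of the bright one was close to the distance of the nearer replicate from the vector.

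GBP3, which has been tied to caspase-4 activation on bacterial surfaces together with GBP1, GBP2 and GBP4, was read by 1 probe set, 223434_at. Its log2 values were 7.13 and 7.16 in the miR-146a arrays, against 6.95 in the vector array. The mean of 7.15 ± 0.02 (SD, n = 2) lay 0.19 above the vector, or 1.14-fold. Both miR-146a arrays were higher, by far less than for GBP1.

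**Figure D1:**
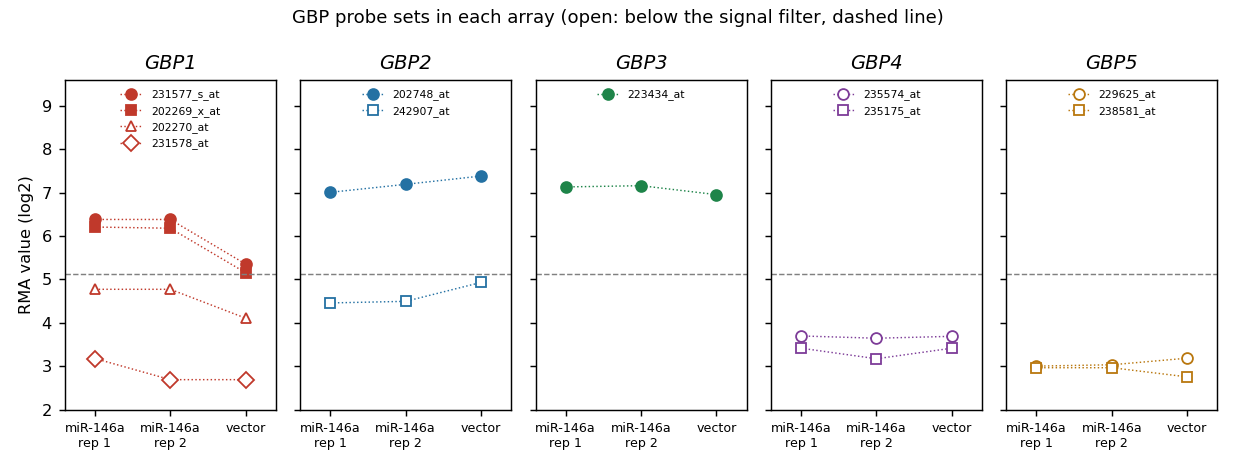
RMA log2 value (vertical axis) of each GBP probe set in miR-146a replicate 1, miR-146a replicate 2 and the vector array (horizontal axis), 1 panel per gene and 1 marker shape per probe set; dotted lines join the values of a probe set, and open markers are below the filter of 5.13 (dashed). Both bright GBP1 probe sets read between 6.18 and 6.38 in the miR-146a arrays, against 5.35 and 5.16 in the vector array, both GBP2 probe sets are highest in the vector array, and all GBP4 and GBP5 markers are open.

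GBP4 and GBP5 gave no usable difference, since all 4 of their probe sets were below the filter. For GBP4, a member without a prenyl anchor, probe set 235574_at had log2 values of 3.70 and 3.65 in the miR-146a arrays, against 3.69 in the vector array. The other, 235175_at, had 3.42 and 3.17 in the miR-146a arrays, against 3.42 in the vector array. The vector value fell within or at the edge of the replicates in both. For GBP5, a Golgi-associated member known for promoting inflammasome assembly, the 2 probe sets disagreed in direction. Probe set 229625_at had 3.005 and 3.036 in the miR-146a arrays, against 3.187 in the vector array. Probe set 238581_at had 2.97 and 2.97 in the miR-146a arrays, against 2.76 in the vector array. No detection calls came with the values, so whether HT29 cells express GBP4 or GBP5 at all is not decided by these signals. GBP6, the more distant member next in the cluster, was equally dim, with log2 values between 2.36 and 3.15 over its 2 probe sets and 3 arrays. No probe set was annotated to GBP7 alone, and probe sets annotated to several genes were not examined.

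Among the 4 bright probe sets 3 lay above the vector in both replicates, against 36.0% of the 27306 probe sets above the filter, and 1 was lower in both, against 33.1%. The 2 GBP1 probe sets were at least 1.5-fold higher in both arrays, as were 0.447% of all bright probe sets, and no GBP probe set was 1.5-fold lower in both, as 0.688% of bright probe sets were. Ordered by the smaller of their 2 array differences, the GBP1 probe sets stood 18th and 19th from the top of the 27306. GBP3 stood at place 2933 among the higher probe sets and GBP2 at place 2619 among the lower ones. Of all 11 probe sets, 5 were higher in both arrays, 3 lower in both and 3 mixed or equal in 1 array, where 29.1% of all probe sets were higher in both and 28.9% lower in both. These shares describe where the members lie and test nothing, since the genes were picked on this contrast.

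**Figure D2:**
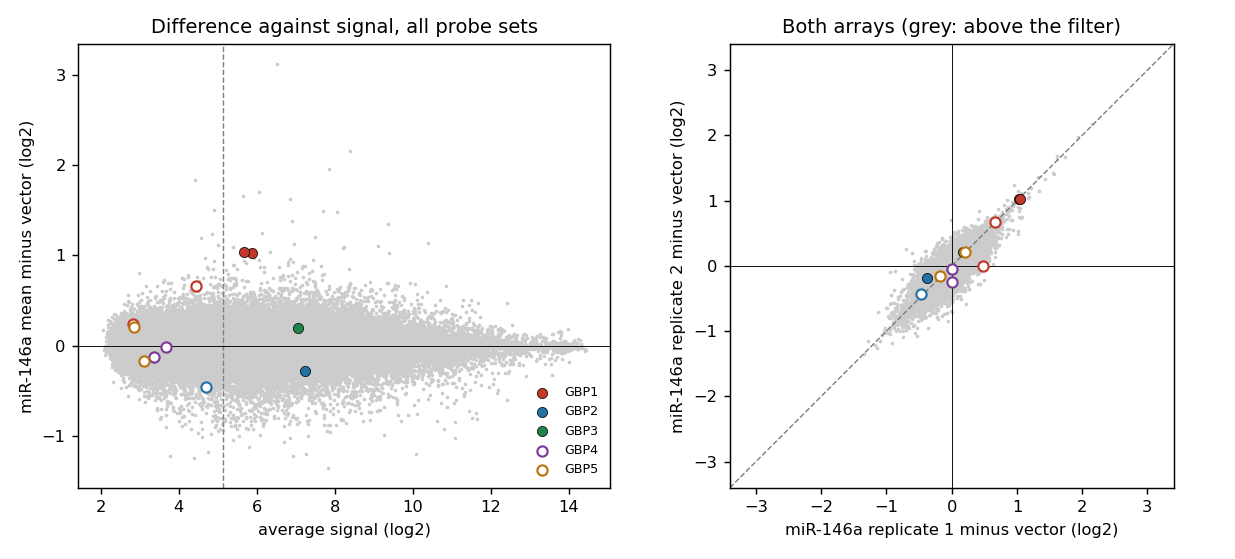
Left, miR-146a mean minus vector (log2) against average signal (log2) for all probe sets except controls (grey) and the GBP probe sets (coloured; open below the filter, dashed line). Right, the difference from the vector in replicate 2 against that in replicate 1 for probe sets above the filter (grey) with all 11 GBP probe sets on top; the 2 bright GBP1 points lie near 1 on both axes at the edge of the grey cloud, and the bright GBP2 and GBP3 points lie inside it.

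The pattern of each bright gene over the 2 array differences was set against every other gene above the filter, with 1 probe set per gene. For GBP1 that was the brightest probe set, whose replicate values are tied, so its 2 differences are equal by that tie. The gene closest to GBP1 was FOSB, an AP-1 subunit, with differences of 1.02 and 1.03 and a Euclidean distance of 0.01, and the next was TGFB2, a TGF-beta ligand, at 0.95 and 0.95 and a distance of 0.11. Only 1 gene lay within 0.1 of GBP1. By contrast 142 genes lay within 0.1 of GBP2, with RHBDL2, a rhomboid protease, and MIR210HG, the host transcript of a microRNA, nearest, and 1318 lay within 0.1 of GBP3, with CARM1, an arginine methyltransferase, and TLE5, a transcriptional corepressor, nearest. With 3 arrays and a vector value common to both differences, this likeness says only that the values are similar in size.

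The genes that flank the cluster were close to the vector. All 8 protein-coding neighbours, 4 on either side, were above the filter, with 5 higher and 3 lower in both arrays (40.2% and 28.8% of all genes) and a median difference of 0.04, beside 0.01 for all 12444 genes tested. By the smaller of their 2 array differences the farthest from the vector were LRRC8B, a volume-regulated anion channel subunit, at 0.23, GTF2B, a general transcription factor, at -0.20, KYAT3, a kynurenine aminotransferase, at -0.18, and LRRC8D, another channel subunit, at 0.09. None was 1.5-fold apart from the vector in both arrays, where 0.546% of all genes were that much higher and 0.297% that much lower. Along this stretch GBP1 was the only gene with a bright probe set that far from the vector, and GBP3 and GBP2, its nearest neighbours of the family, were at 0.19 and -0.28.

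**Figure D3:**
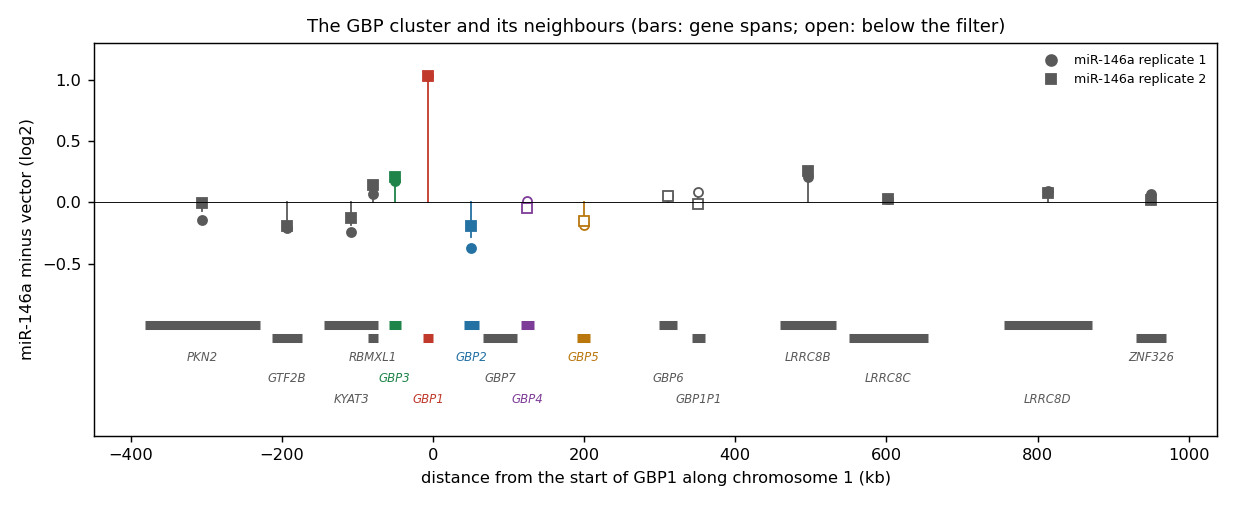
Difference from the vector (log2) in miR-146a replicate 1 (circles) and replicate 2 (squares) for the brightest probe set of each gene, placed at the middle of the gene along chromosome 1, in kb from the start of GBP1; bars below mark gene spans and open symbols are below the filter. Both GBP1 symbols coincide at 1.03 because the replicate values of that probe set are tied, and every neighbour with a bright probe set lies between -0.38 and 0.25.

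Related gene lists were set beside the family: other large GTPases, the interferon gamma pathway, its output genes, the enzymes that prenylate and process CaaX proteins, and the caspase and inflammasome partners of guanylate-binding proteins. Limma with Benjamini-Hochberg adjustment over all 12444 genes called 0 higher and 0 lower at 0.05 (0% of genes), though 2933 had an unadjusted p under 0.05. When the variance prior was taken only from genes whose 2 replicate values differ, limma called 592 higher (4.76%) and 294 lower (2.36%). That setting was known from earlier results of these data, and it takes the single vector array to vary as little as the miR-146a arrays. As a sign of RNA quality, the array's control probe sets at the 5′ ends of ACTB and GAPDH differed from the vector by -0.23 and -0.31 on the log2 scale, and those at the 3′ ends by 0.04 and -0.02. Their part in any difference given here was not tested.

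Among other large GTPases, 13 of the 19 with a probe set were above the filter, with 6 higher in both arrays and 4 lower in both, against 40.2% and 28.8% of all genes, and with a median difference of 0.00. By the brightest probe set of each gene, the Mx proteins were the members far from the vector. MX1, an antiviral GTPase of the same superfamily, had log2 values of 8.88 and 8.72 in the miR-146a arrays, against 7.31 in the vector array. MX2, its nuclear-pore-associated relative, had 7.70 and 7.64 in the miR-146a arrays, against 6.78 in the vector array, a difference of 0.89. They were the 2 members called with the prior from unequal replicates (adjusted p = 9.2e-06 and adjusted p = 0.000219). That prior called 4.76% of all genes higher and 2.36% lower. Both Mx genes were at least 1.5-fold higher in both arrays, as were 0.546% of all genes. DNM2, the dynamin of endocytosis, differed by -0.31, though its other bright probe set differed by 0.42. EHD2, a caveolar ATPase, differed by -0.20. The bright probe sets of MFN1 went as low as -0.56, and those of EHD4 ran between -0.30 and 0.34.

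In the interferon gamma pathway list, 13 of the 14 members with a probe set were above the filter, 5 higher and 3 lower in both arrays (40.2% and 28.8% of all genes), with a median of 0.05. Set by 1 array alone these counts moved, to 9 higher without replicate 2 and to 6 lower without replicate 1. IRF9, the DNA-binding subunit of the interferon-stimulated transcription factor ISGF3, differed by 0.60. It had log2 values of 7.84 and 7.88 in the miR-146a arrays, against 7.26 in the vector array. It was the 1 member called with the prior from unequal replicates (adjusted p = 0.00246). That prior called 4.76% of all genes higher and 2.36% lower. IRF1, a transcription factor known to drive GBP genes after interferon gamma, had 8.11 and 8.09 in the miR-146a arrays, against 7.91 in the vector array, a difference of 0.19 that was not called (adjusted p = 0.227 with that prior). JAK1, a kinase of the interferon receptors, differed by -0.17, with other bright probe sets between -0.63 and 0.00, and PTPN11, a phosphatase, by -0.24, with others as low as -0.75. IRF1 was thus as close to the vector as GBP3, and GBP1 was farther from it than any bright member of this list.

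The interferon gamma output list had 24 of its 30 members with a probe set above the filter, 15 higher and 5 lower in both arrays (40.2% and 28.8% of all genes), and the highest median of the lists at 0.14. With the prior from unequal replicates 5 members were called, all higher, where 4.76% of all genes were called higher and 2.36% lower. Of the 15, CXCL11, a T-cell chemokine, and BATF2, a transcription factor, passed the filter only through the miR-146a arrays. The miR-146a mean of these 2 therefore had to read higher, and BATF2 is also 1 of the 5 called. The immunoproteasome subunit PSMB9 differed by 1.24, its partner PSMB8 by 0.67, BATF2 by 0.66 and the peptide transporter subunit TAP1 by 0.50. The replicates of TAP1 were exactly tied at 7.70, so its call rests on the prior alone for its spread, and 1610 of the 12444 genes were tied in this way. PSMB9 was the 1 bright member with a larger difference than GBP1. BATF2 had log2 values of 5.50 and 5.58 in the miR-146a arrays, against 4.88 in the vector array.

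For the enzymes that act on prenylated proteins the brightest probe sets read near the vector. Of the 8 bright members both arrays put 3 higher and 3 lower (40.2% and 28.8% of all genes), at a median of 0.00. None was called with either prior, where the prior from unequal replicates called 4.76% of all genes higher and 2.36% lower. PGGT1B, the subunit that gives geranylgeranyl transferase its specificity, differed by 0.19, with its other bright probe sets as low as -0.15. Other bright probe sets reached 0.35 for RCE1, a CaaX protease, and -0.30 for FNTA, the subunit that farnesyl and geranylgeranyl transferase share. RABGGTA and RABGGTB, which prenylate Rab proteins, differed by 0.11 and -0.12, and PDE6D, a carrier of prenylated proteins, by -0.11.

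Of the caspase and inflammasome partners, 12 of the 17 with a probe set were bright, with a median of -0.02. In both arrays 3 were higher and 5 lower, against 40.2% and 28.8% of all genes. CASP4, 1 of the 3 higher, differed by 0.21, but its other bright probe set by -0.56. With the prior from unequal replicates 1 of the 12 was called higher and 1 lower, beside 4.76% and 2.36% of all genes. CASP8, an initiator caspase, differed by 0.35 (adjusted p = 0.0428), but its other bright probe set by -0.19. LGALS3, a galectin that marks broken vacuoles, differed by -0.38 (adjusted p = 0.0215), but its other bright probe set by 0.58. NINJ1, a membrane rupture protein, differed by 0.16 and LGALS8, another vacuole-sensing galectin, by -0.26.

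**Figure D4:**
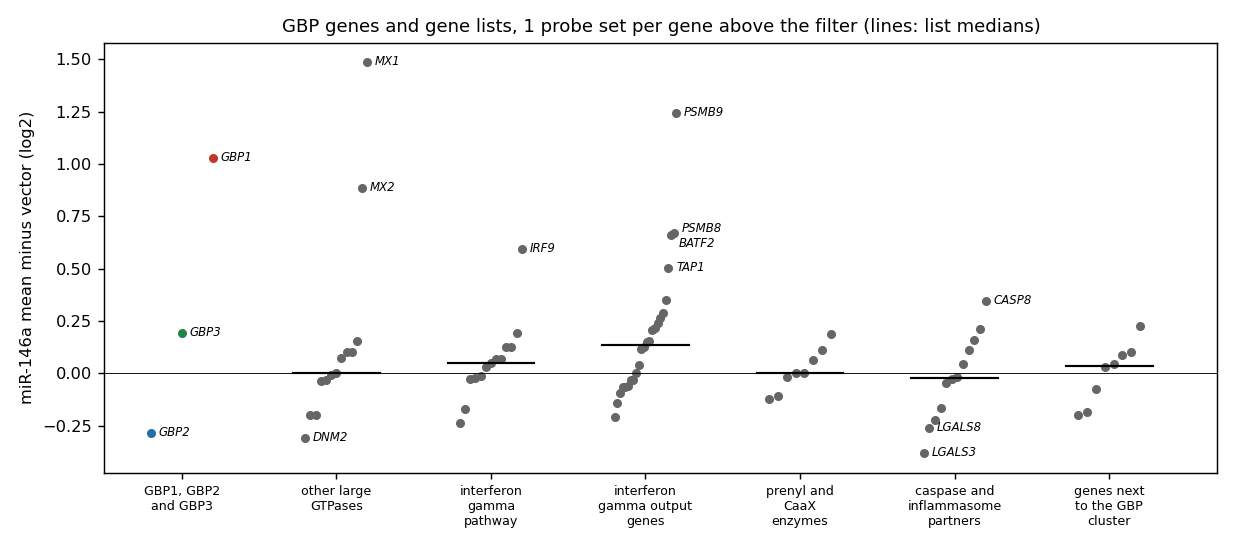
miR-146a mean minus vector (log2, vertical axis) for 1 probe set per gene above the filter, for the 3 bright GBP genes and 6 gene lists (horizontal axis), with a line at each list's median. GBP1 at 1.03 lies between MX1 and MX2 in size and below PSMB9, while the prenyl and CaaX enzymes and the cluster's neighbours lie close to 0.

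The cells carried the markers of colon epithelium in all 3 arrays, with 10 of 10 above the filter. These markers summed to 107.4 and 107.2 in the miR-146a arrays, against 108.2 in the vector array, on the log2 scale. Among them CDH17, an intestinal cadherin, read 5.39 and 5.24 in the miR-146a arrays, against 5.86 in the vector array. It was the 1 marker called, lower, with the prior from unequal replicates (adjusted p = 0.00592). That prior called 4.76% of all genes higher and 2.36% lower. Of other cell types, 3 of 6 leukocyte markers, 1 of 5 endothelial and 2 of 5 fibroblast markers were above the filter. The bright leukocyte markers were LYZ, CD14 and ITGAM. LYZ, lysozyme, read 12.72 and 12.96 in the miR-146a arrays, against 12.95 in the vector array, a difference of -0.11. Its other bright probe set differed by -0.72. CD14, an endotoxin co-receptor, read 6.41 and 6.23 in the miR-146a arrays, against 6.15 in the vector array. ITGAM, an integrin, read 5.41 and 5.37 in the miR-146a arrays, against 5.41 in the vector array. PTPRC, the pan-leukocyte marker, was dim at 3.36 and 3.30 in the miR-146a arrays, against 3.43 in the vector array. The brightest probe sets of LYZ, CD14 and ITGAM summed to 24.5 and 24.6 in the miR-146a arrays, against 24.5 in the vector array.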

How the data were processed

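Biotin-labelled cRNA of HT29 cells was hybridised to Affymetrix arrays per the labels' protocols. The deposited log2 values were made with RMA per the submitters' processing notes; the version and any array batch are not stated in the sources used here. They cover 54675 probe sets in 3 arrays. Gene names came from the platform annotation, updated to current RefSeq symbols, and list members without a probe set of their own were not analysed here.

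All 11 GBP probe sets are described from each array. Every other gene was read from its brightest probe set, groups weighted equally, if that exceeded the median over non-control probe sets (5.13). Differences are miR-146a mean minus vector. Limma 3.58.1 (R 4.3.3; lmFit, eBayes, two-sided, Benjamini-Hochberg, 0.05) was fitted to 12444 genes. The number of arrays limits the precision.

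The members and lists were chosen with earlier results of these data known. The genes named are all GBP probe sets, up to 4 per list by the smaller array difference, IRF1, and the 2 genes nearest to each bright member. GBP6, GBP1P1, CXCL11, MFN1, EHD4, RCE1, FNTA, CASP4 and the markers CDH17, LYZ, CD14, ITGAM and PTPRC were named after their values were seen. Alternatives were other probe set summaries, filters, priors and normalizations, and leaving out an array. Figures were drawn with matplotlib 3.10.9.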

Additional observations from a re-analysis of the deposited data

How the results depend on the processing

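The GBP1 difference in its 2 bright probe sets ran between 1.02 and 1.05 under cyclic loess, quantile normalization and the loss of either miR-146a array. For the tied probe set 231577_s_at the loss of either array could not change the value. GBP3 stayed higher and GBP2 lower in each of these settings. The single vector array could not be left out. The median difference over all 11 GBP probe sets, 0.19, was between 0.00 and 0.18 when a miR-146a array was left out, with 0.00 without replicate 1. The count of GBP probe sets higher in both arrays was 3, but 5 with no filter and 1 with a filter at percentile 70 (6.66), which drops GBP1. With the prior from unequal replicates limma called 886 genes in place of 0, with 2 other large GTPases, 1 interferon gamma pathway gene, 5 output genes and 2 caspase or inflammasome partners; the other 6 settings of the fit left these counts at 0. Of the list counts by direction, 77 stayed within 1.5 times and 7 did not, among them interferon gamma output genes higher in both arrays, 7 in place of 15 with the stricter filter. No paired analysis was possible because 1 vector array stands against 2 miR-146a arrays. Signal below the median limits GBP4 and GBP5 most.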
